A study of Homo sapiens with 3 samples.

Results

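The genes of mitochondrial fatty acid oxidation and of the carnitine shuttle that feeds it were followed in 2 glioma clones on 2-color arrays. The 10 genes are CPT1A, CPT1C, CPT2, SLC25A20, ACADVL, ACADM, HADHA, HADHB, ACAT1 and FABP5, a list chosen with earlier results of these data known. They were found by RefSeq transcript and are read by 16 of the 58201 probes that are not controls, 10 of the 25006 genes that could be named. CPT1C and HADHB have 2 probes each, ACAT1 and FABP5 have 3 each, and the other genes have 1 each. All 16 probes lay well above background in all 6 channels, and 0 of their spots were saturated or marked as uneven or as an outlier.

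Both clones descend from U87 (U-87MG), an established human glioblastoma line, and were selected with G418 after stable transfection. U87WT 5 carries GFP-IGF1R, which reaches the nucleus. U87Mut 5 carries GFP-IGF1R1025x-1100x-1120x, in which 3 lysines are replaced by arginine and which stays out of the nucleus. Each is 1 clone, and no untransfected U87 sample was analysed here. RNA from U87WT (Cy5) and from U87Mut (Cy3) was hybridized together on 1 array per condition: serum-free medium for 24 h, 50 nM IGF1 for 24 h, and the same IGF1 with 0.5 μM OSI906, an inhibitor of the IGF1R and insulin receptor kinases. The labels give the OSI906 dose differently in 2 places, and the dose of the study's methods was used. The dyes were not swapped and no condition was repeated, so clone, dye and receptor form cannot be told apart, and neither can array and treatment.

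Long-chain fatty acids enter the mitochondrial matrix as carnitine esters. A CPT1 enzyme on the outer membrane makes the ester, the carrier SLC25A20 exchanges it for free carnitine across the inner membrane, and CPT2 returns the acyl group to coenzyme A. Acyl-CoA dehydrogenases and the trifunctional protein then shorten the chain to acetyl-CoA, and malonyl-CoA, made by acetyl-CoA carboxylase, inhibits CPT1 so that synthesis and oxidation do not run together.

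The 2 subunits of the trifunctional protein, HADHA and HADHB, are encoded head to head on chromosome 2, and their RefSeq start sites lie 307 bases apart. The stretch between them that both promoter windows hold is shown because the ratios of these neighbors are described together further on. It spans chr2:26244689-26244882 in GRCh38.p14, is printed on the strand of HADHB, ends 57 bases before the start of either gene on its own strand, and has a GC content of 68.6%.
HADHA and HADHB: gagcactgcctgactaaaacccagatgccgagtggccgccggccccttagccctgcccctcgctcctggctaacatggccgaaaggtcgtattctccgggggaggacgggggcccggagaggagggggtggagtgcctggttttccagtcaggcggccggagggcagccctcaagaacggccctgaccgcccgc
RefSeq promoter windows of 300 bases were found for 9 of the 10 genes, 13 windows in all. On either strand, 0 of the 13 held the FOXO motif GTAAACA or the E-box CACGTG, and among all 35116 windows the shares were 3.42% and 7.26%. This says only that these letters are not in these windows.

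Levels are log2 fluorescence after background correction and normalization, in arbitrary units, and a ratio is the log2 difference of U87WT over U87Mut on 1 array. In place of replicates, the spread of a single ratio was estimated from pairs of arrays over 27680 probes well above background in every channel. Its SD was 0.144 between the serum-free and IGF1+OSI906 arrays, 0.187 between serum-free and IGF1, and 0.188 between IGF1 and IGF1+OSI906, which includes any response to the treatments. The clones were tested by limma over the 3 arrays, which differ in treatment, with adjustment over all 58201 probes. Each SE marked "SE, 3 arrays" and each interval come from this fit, not from the 3 ratios of a probe alone. The fit is moderated, meaning that it draws the variance of each probe toward a value common to all probes. For a probe with widely varying ratios, such as that of SLC25A20, this SE is smaller than the plain SE of its ratios. IGF1R itself had log2 ratios of 0.07, 0.23 and 0.09, with a mean of 0.13 ± 0.0462 (SE, 3 arrays) and an adjusted p of 0.208 by limma. Whether its 1 probe reads the transfected receptor is not given in the sources used here. Of markers of the cells, VIM, CD44, NES and CHI3L1 were well above background in every channel. So were 1 of 3 astroglial genes (AQP4) and 1 of 2 oligodendroglial genes (OLIG2), both dim, while S100B was so in 2 channels and GFAP and SOX10 in 0. Of markers of other cells, EPCAM (epithelium) and the brightest probe of PTPRC (blood) were so in every channel. PECAM1 (endothelium) was so in 1 channel by its brightest probe. NES, with levels of 6.66 to 7.32, was about as dim as EPCAM, at 6.55 to 7.15. Being above background thus does not tell these cell types apart here.

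Between the clones, 1 of the 10 genes was higher in U87WT (CPT1C), 1 was lower (FABP5) and 8 were not called. By the same limma test 4.25% of all probes were higher and 4.1% lower, and among the 27680 probes well above background the shares were 8.55% and 8.52%. Either way, 8.36% of all probes and 17.1% of the bright ones were called, so the count of 2 in 10 is near the background. The mean ratios of the 10 genes ranged from -0.31 to 0.50 with a median of -0.08, against -0.00 over all probes.

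**Figure D1:**
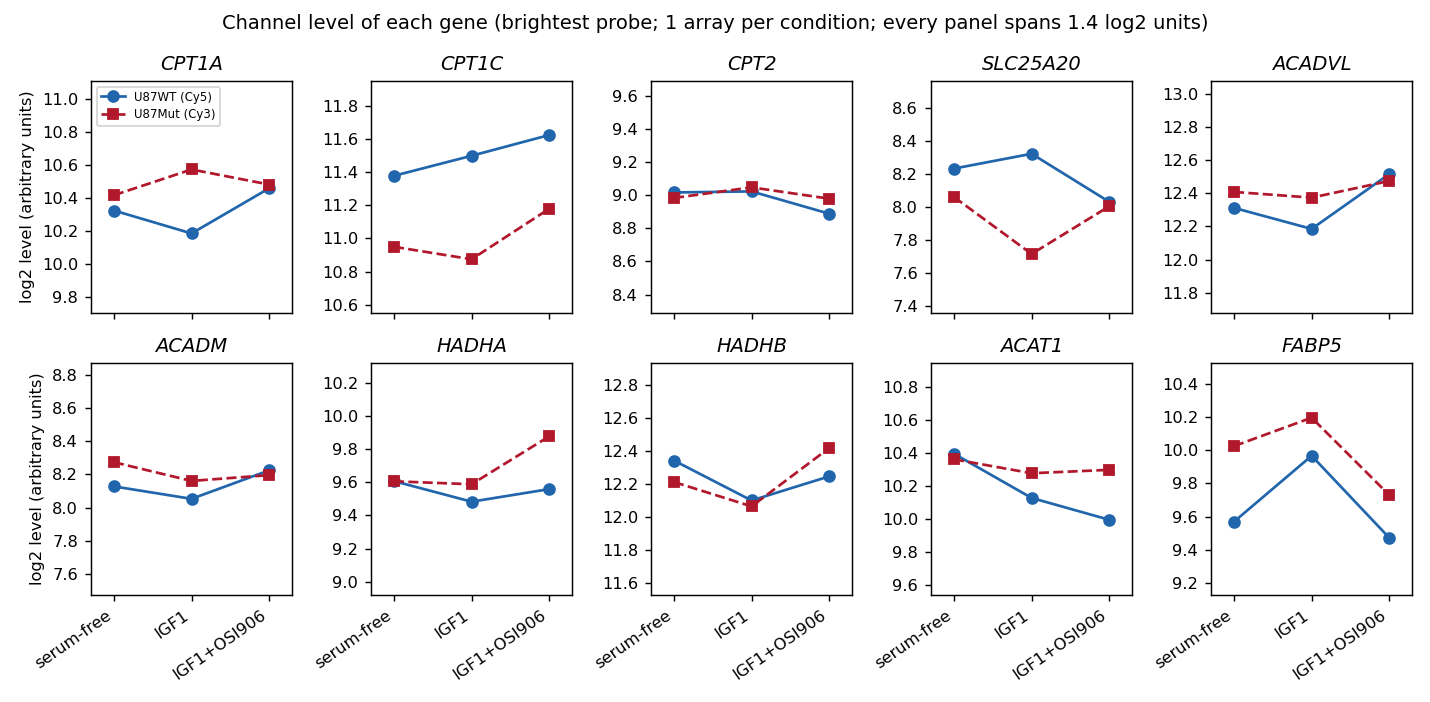
Log2 level (arbitrary units) of each of the 10 genes by its brightest probe in U87WT (circles) and U87Mut (squares), on 1 array for each of serum-free medium, IGF1 and IGF1+OSI906. CPT1C lies higher in U87WT and FABP5 lower in U87WT on all 3 arrays, while the lines of the other 8 genes cross, touch or lie close on at least 1 array.

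CPT1C, the brain form of CPT1, sits mainly in the endoplasmic reticulum and has little of the transferase activity of its relatives. Its level in U87WT was 11.38 in serum-free medium, 11.50 with IGF1 and 11.62 with IGF1+OSI906, and in U87Mut it was 10.95, 10.87 and 11.18. All U87WT levels lay above all U87Mut levels. The ratios of 0.43, 0.63 and 0.45 gave a mean of 0.50 ± 0.0526 (SE, 3 arrays; 95% interval 0.36 to 0.64), a 1.41-fold higher level in U87WT, with an adjusted p of 0.0123 by limma.
The second CPT1C probe had ratios of 0.68, 0.37 and 0.43 and a mean of 0.49 ± 0.0692 (SE, 3 arrays), with an adjusted p of 0.0232 by limma. Both probes thus placed CPT1C higher in U87WT on every array, although on different arrays the ratio passed 0.5. The call of the brightest probe by limma was lost without the serum-free array (adjusted p = 0.0623), without the IGF1+OSI906 array (0.0890), with the scanner software's signals (0.112) and with a median in place of loess (0.515).

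CPT1A, the form in liver and most other tissues and the main control point of the pathway, was not called. In U87WT its level was 10.32, 10.19 and 10.46 in serum-free medium, with IGF1 and with IGF1+OSI906, and in U87Mut 10.42, 10.57 and 10.48. U87WT was the lower clone on each array, with ratios of -0.09, -0.39 and -0.02, but the ranges of the clones overlapped. The mean ratio was -0.17 ± 0.0801 (SE, 3 arrays; 95% interval -0.38 to 0.04), with an adjusted p of 0.343 by limma. On the IGF1 array the ratio was -0.67 with the background fitted on all spots and 0.06 with a median in place of loess. On the IGF1+OSI906 array that median gave 0.06, the scanner software's signals 0.02 and quantile normalization between arrays 0. The sign on that array thus depended on the processing.

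SLC25A20, the carnitine-acylcarnitine carrier, differed most on the IGF1 array. Its level was 8.23, 8.32 and 8.03 in U87WT on the serum-free, IGF1 and IGF1+OSI906 arrays and 8.06, 7.72 and 8.00 in U87Mut. The ratio was 0.17, 0.61 and 0.03, and the array with IGF1 stood apart through the lowest of the 6 levels, that of U87Mut. Over the arrays the mean of 0.27 ± 0.119 (SE, 3 arrays; 95% interval -0.04 to 0.58) was not called (adjusted p = 0.305 by limma). With the background fitted on all spots the ratio with IGF1 was 0.11, and in the deposited table it was 0.10. It was 0.68 with an offset of 20, 0.70 without background correction and 0.59 with quantile normalization between arrays. The scanner software's signals gave 0.65 and a median in place of loess 0.88. The ratio was thus small only under the fit on all spots and in the deposited table. In that fit the SD of the Cy5 background of the IGF1 array was 701, against 1.32 as reported.
CPT2, which completes the shuttle on the matrix side, kept ratios of 0.03, -0.02 and -0.09. Its mean was -0.03 ± 0.0402 (SE, 3 arrays; 95% interval -0.13 to 0.08) and was not called (adjusted p = 0.776 by limma). On the IGF1 array the ratio of CPT2 was -0.29 with the background fitted on all spots, -0.36 in the deposited table and 0.33 with a median in place of loess.

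By size alone, 0, 2 and 0 of the 10 genes had a ratio past 0.5 either way by their brightest probe on the serum-free, IGF1 and IGF1+OSI906 arrays. The 2 genes on the IGF1 array were CPT1C and SLC25A20, both above. With the background fitted on all spots they were at 0.36 and 0.11, and the 2 genes past 0.5 were instead CPT1A at -0.67 and FABP5 at -0.55, both below. The deposited ratios placed 4 genes past 0.5, all below: CPT1A, HADHA, ACAT1 and FABP5 at -0.74, -0.50, -0.54 and -0.62. With a median in place of loess 3 genes were past 0.5, all above: CPT1C, SLC25A20 and HADHB at 1.12, 0.88 and 0.60. Of all probes, 4.68%, 4.66% and 4.25% were past 0.5 on these arrays, and among probes well above background 9.47%, 9.17% and 8.8%.

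**Figure D2:**
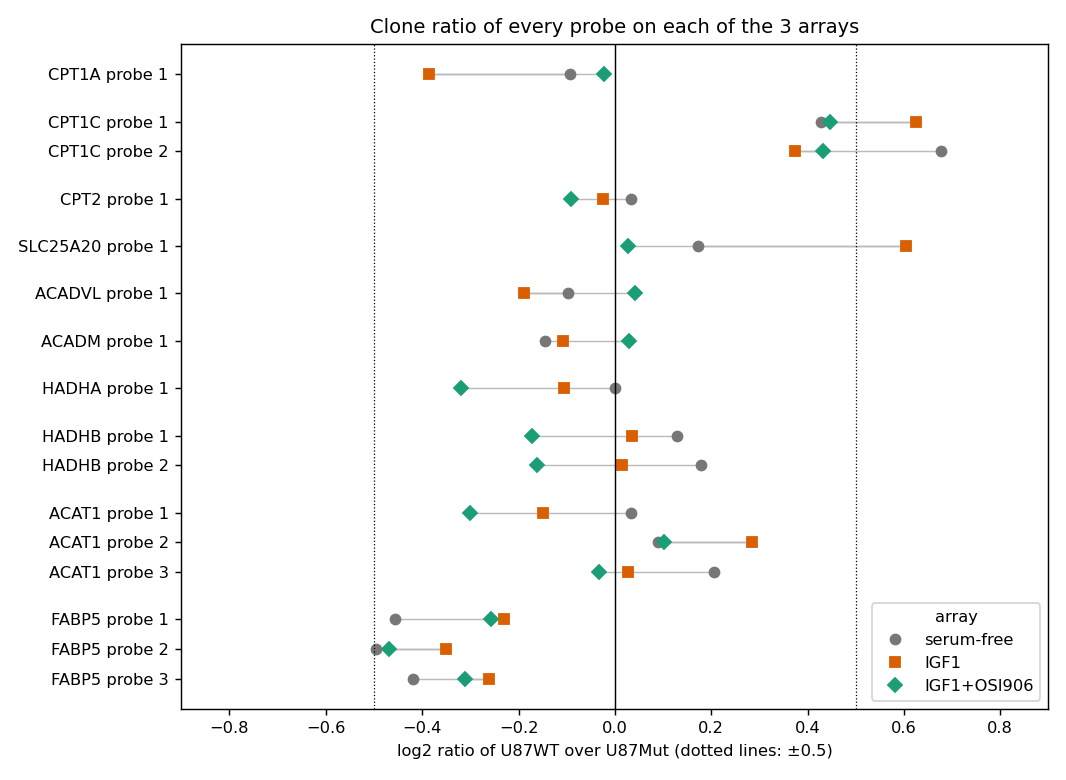
Log2 ratio of U87WT over U87Mut (horizontal axis, dotted lines at 0.5 either way) of each of the 16 probes on the serum-free (circles), IGF1 (squares) and IGF1+OSI906 (diamonds) arrays, with probes of a gene numbered from the brightest. The 2 CPT1C probes lie to the right of 0 and the 3 FABP5 probes to the left on every array, whereas SLC25A20 reaches 0.61 on the IGF1 array alone.

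The 4 enzymes of the spiral itself were not called. ACADVL and ACADM, the dehydrogenases that open the cycle for very long and medium chains, had mean ratios of -0.08 ± 0.0548 and -0.08 ± 0.0477 (SE, 3 arrays). Their ratios ran from -0.19 to 0.04 and from -0.15 to 0.03, with adjusted p of 0.501 and 0.474 by limma. Each was thus lower in U87WT on the serum-free and IGF1 arrays and slightly higher on the IGF1+OSI906 array, except that with a median in place of loess the IGF1 array gave 0.39 and 0.18, and that the scanner software's signals gave ACADM -0.02 with IGF1+OSI906.

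HADHA carries the hydratase and the long-chain hydroxyacyl-CoA dehydrogenase of the trifunctional protein, and HADHB carries its thiolase. HADHA had a level of 9.61, 9.48 and 9.56 in U87WT and 9.61, 9.59 and 9.88 in U87Mut. HADHB had 12.34, 12.10 and 12.25 in U87WT and 12.21, 12.06 and 12.42 in U87Mut. In both genes U87Mut was highest with IGF1+OSI906, and there U87WT was the lower clone.
The ratio of HADHA was 0.00, -0.11 and -0.32, and that of HADHB 0.13, 0.04 and -0.17, so both stepped down in the same order over the serum-free, IGF1 and IGF1+OSI906 arrays. The second HADHB probe gave 0.18, 0.01 and -0.16. For HADHA the order did not hold with the background fitted on all spots (-0.01, -0.42 and -0.32) or in the deposited table (0.00, -0.50 and -0.32), and for neither gene with a median in place of loess, where the IGF1 array was highest at 0.28 for HADHA and 0.60 for HADHB. The order was not particular to this pair. CPT2 (0.03, -0.02 and -0.09) and the brightest ACAT1 probe (0.03, -0.15 and -0.30) also stepped down, though ACAT1 probe 2 did not. All of these come from the same 3 hybridizations. Neither HADHA nor HADHB was called, with means of -0.14 ± 0.0698 and -0.00 ± 0.0669 (SE, 3 arrays) and adjusted p of 0.360 and 0.992 by limma.

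ACAT1 is the mitochondrial thiolase that joins and splits acetoacetyl-CoA, at the meeting of fat oxidation, ketone bodies and isoleucine breakdown. Its probes disagreed. The brightest gave levels of 10.40, 10.13 and 10.00 in U87WT and 10.36, 10.28 and 10.30 in U87Mut, hence ratios of 0.03, -0.15 and -0.30. Probe 2 gave ratios of 0.09, 0.29 and 0.10, and probe 3 gave 0.21, 0.03 and -0.03. Their means of -0.14, 0.16 and 0.07 differ in sign, and 0 of the 3 probes were called (adjusted p = 0.377, 0.186 and 0.605 by limma). No direction can be given for this gene.

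FABP5 binds fatty acids in the cytosol and carries them to membranes, mitochondria and the nucleus. Its level by the brightest probe was 9.57 in serum-free medium, 9.97 with IGF1 and 9.47 with IGF1+OSI906 in U87WT, and 10.03, 10.20 and 9.73 in U87Mut. U87Mut was higher on each array, but the ranges of the clones overlapped, since the levels of both differed between arrays. The ratios of -0.46, -0.23 and -0.26 gave a mean of -0.31 ± 0.0570 (SE, 3 arrays; 95% interval -0.47 to -0.16), a 1.24-fold higher level in U87Mut, with an adjusted p of 0.0439 by limma.
Probe 2 had ratios of -0.50, -0.35 and -0.47, and probe 3 had -0.42, -0.26 and -0.31. Their means were -0.44 ± 0.0440 and -0.33 ± 0.0450 (SE, 3 arrays), with adjusted p of 0.0112 and 0.0217 by limma. All 3 probes were therefore lower in U87WT on all 3 arrays. The call of the brightest FABP5 probe was lost without the serum-free array (adjusted p = 0.122 by limma) and without the IGF1+OSI906 array (0.175). It was also lost without background correction (adjusted p = 0.0605 by limma), in the deposited table (0.0959), with the background fitted on all spots (0.106), with the scanner software's signals (0.137) and with a median in place of loess (0.824). FABP5 has near-identical pseudogene copies, and whether these probes also read them was not tested.

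After IGF1, 0 of the 10 genes moved past 0.5 by their brightest probe in either clone, where 2.41% of all probes did in U87WT and 1.05% in U87Mut (4.36% and 2.12% of those well above background). There is 1 array per condition, so these differences carry no test. FABP5 was 0.40 higher with IGF1 in U87WT, the largest difference there, and 0.17 higher in U87Mut, where SLC25A20 at -0.34 was the largest. With the background fitted on all spots FABP5 was at 0.23 in U87WT and ACAT1 at -0.42. As reported, the other FABP5 probes were 0.25 and 0.42 higher in U87WT and 0.11 and 0.27 higher in U87Mut. Over probes well above background the SD of this difference was 0.299 in U87WT and 0.232 in U87Mut.
The 4 enzymes of the spiral were lower with IGF1 in both clones, by values from -0.24 (HADHB) to -0.08 (ACADM) in U87WT and from -0.15 (HADHB) to -0.02 (HADHA) in U87Mut, all within those SDs. With a median in place of loess all 4 were higher in U87WT, from 0.14 to 0.26, and HADHA in U87Mut was at 0.15 with the background fitted on all spots. CPT1C differed between its probes in U87WT, at 0.12 by the brightest and -0.56 by the second. SLC25A20 differed by 0.09 in U87WT and by -0.34 in U87Mut, and with the background fitted on all spots by -0.29 and -0.25.

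With OSI906 added to IGF1, 0 of the 10 genes moved past 0.5 by their brightest probe in either clone, where 3.53% of all probes did in U87WT and 1.24% in U87Mut (6.87% and 2.51% of those well above background). FABP5 had the largest difference in both clones and the opposite sign to IGF1, at -0.49 in U87WT and -0.47 in U87Mut. With the background fitted on all spots it was at -0.31 in U87WT, where CPT1A was at 0.40. Probe 2 gave -0.56 in U87WT and -0.44 in U87Mut, and probe 3 gave -0.61 and -0.56. The level of FABP5 was thus highest with IGF1 and lowest with IGF1+OSI906 by every probe in both clones, although with a median in place of loess the brightest probe was at -0.18 after IGF1 in U87Mut. Since the difference under OSI906 shares the IGF1 array with the difference after IGF1, an error on that array would move them in opposite directions.
The enzymes of the spiral were higher with OSI906 than with IGF1 alone in both clones. In U87WT the values ran from 0.08 (HADHA) to 0.33 (ACADVL), and in U87Mut from 0.04 (ACADM) to 0.35 (HADHB). With a median in place of loess HADHA and HADHB in U87WT were at -0.09 and -0.03, and ACADM in U87Mut was at -0.03 with the background fitted on all spots.

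**Figure D3:**
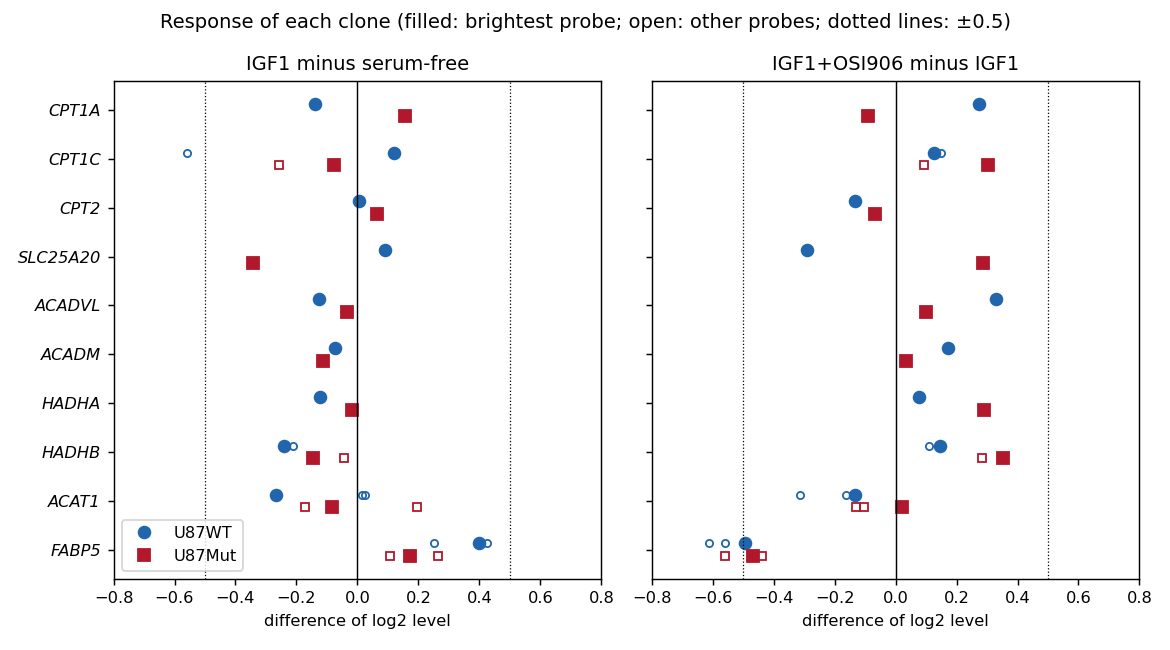
Difference of log2 level between IGF1 and serum-free medium (left) and between IGF1+OSI906 and IGF1 (right) for each gene in U87WT (circles) and U87Mut (squares), with the brightest probe filled, other probes open and dotted lines at 0.5 either way. FABP5 lies to the right of 0 with IGF1 and to the left with OSI906 for every probe and clone, and the filled points of all 10 genes lie within 0.5.

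Around these genes, a list of 47 others of the pathway was examined, of which 41 were well above background in every channel. Between the clones, 8 were higher in U87WT, 3 lower and 36 not called by limma, against the background shares of 8.55% and 8.52% among bright probes. Without the IGF1+OSI906 array, with the scanner software's signals or with a median in place of loess 0 were higher and 0 lower, and by the deposited ratios 1 and 1, so the calls and adjusted p of the pathway genes hold for the reported processing. The median of their mean ratios was 0.12, with 32 of 47 above 0, where the median of all probes was -0.00 and that of the 10 genes -0.08.
Of the genes for uptake and binding, 2 of 7 were higher and 1 lower. DBI, the acyl-CoA binding protein, had ratios of 0.93, 0.74 and 0.73 and a mean of 0.80 ± 0.0549 (SE, 3 arrays; adjusted p = 0.0056 by limma). SLC27A1, a fatty acid transport protein, had 0.82, 0.65 and 0.80 with a mean of 0.76 (adjusted p = 0.0048 by limma), while its second probe had a mean of 0.12. Both exceeded every one of the 10 genes in size.
None of the 4 genes of carnitine handling was called (0 of 4). Of 11 further genes of mitochondrial oxidation 1 was higher and 1 lower, the latter being ECI1, the isomerase that moves double bonds of unsaturated chains to where the cycle can take them. ECI1 had ratios of -0.79, -0.62 and -0.69 and a mean of -0.70 ± 0.0458 (SE, 3 arrays; adjusted p = 0.0051 by limma).

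The counts of these groups stand beside the same shares of 8.55% higher and 8.52% lower among bright probes, and no group was tested. Electron transfer from the dehydrogenases had 2 of 3 genes higher, among them ETFDH, which passes the electrons to ubiquinone, at 0.42 ± 0.0580 (SE, 3 arrays). In peroxisomal oxidation 1 of 8 was higher and 1 lower. DECR2, the peroxisomal dienoyl-CoA reductase, had ratios of 0.37, 0.45 and 0.42 and a mean of 0.41 ± 0.0365 (SE, 3 arrays; adjusted p = 0.0088 by limma) by the brightest probe and a mean of 0.06 by the second. Of the 4 genes of ketone body metabolism, 0 were called.
Of the 10 regulators 2 were higher, 1 of them ACACA, an acetyl-CoA carboxylase. Its mean ratio was 0.44 ± 0.0337 (SE, 3 arrays; adjusted p = 0.0067 by limma) by the brightest probe and 0.05 by the second. The other acetyl-CoA carboxylase of the list, ACACB, was not called. Its mean ratios were 0.32 by the brightest probe and 0.17 by the second (adjusted p = 0.0663 and 0.173 by limma).

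The pathway's largest differences after IGF1 were in U87WT those of PRKAA1, ACAD9, DBI and HSD17B10, at -1.17, -0.62, -0.60 and 0.51. PRKAA1, a catalytic subunit of AMP-activated kinase, gave -0.16 by its second probe, and ACAD9, an assembly factor of complex I related to ACADVL, gave -0.32 by its second. In U87Mut they were those of FABP3, HADH, OXCT1 and ACAD9, at -0.61, -0.53, -0.49 and -0.48. These differences are not given under the fit of the background on all spots. Under that fit the clone ratio on the IGF1 array, another measure, went from 0.55 to 0.08 in FABP3 and from 0.65 to 0.18 in OXCT1. It went from 0.29 to 0.11 in HADH, 0.26 to 0.14 in HSD17B10 and 0.15 to -0.09 in ACAD9. In PRKAA1 it went from -0.20 to -0.09 and in DBI from 0.74 to 1.12. Either channel can move this ratio, so it does not show whether the differences after IGF1 hold under that fit. Of the 47 genes, 1 was past 0.5 upward and 3 downward in U87WT, and 0 and 2 in U87Mut, where 2.41% and 1.05% of all probes and 4.36% and 2.12% of bright probes were past 0.5 either way in these clones.

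**Figure D4:**
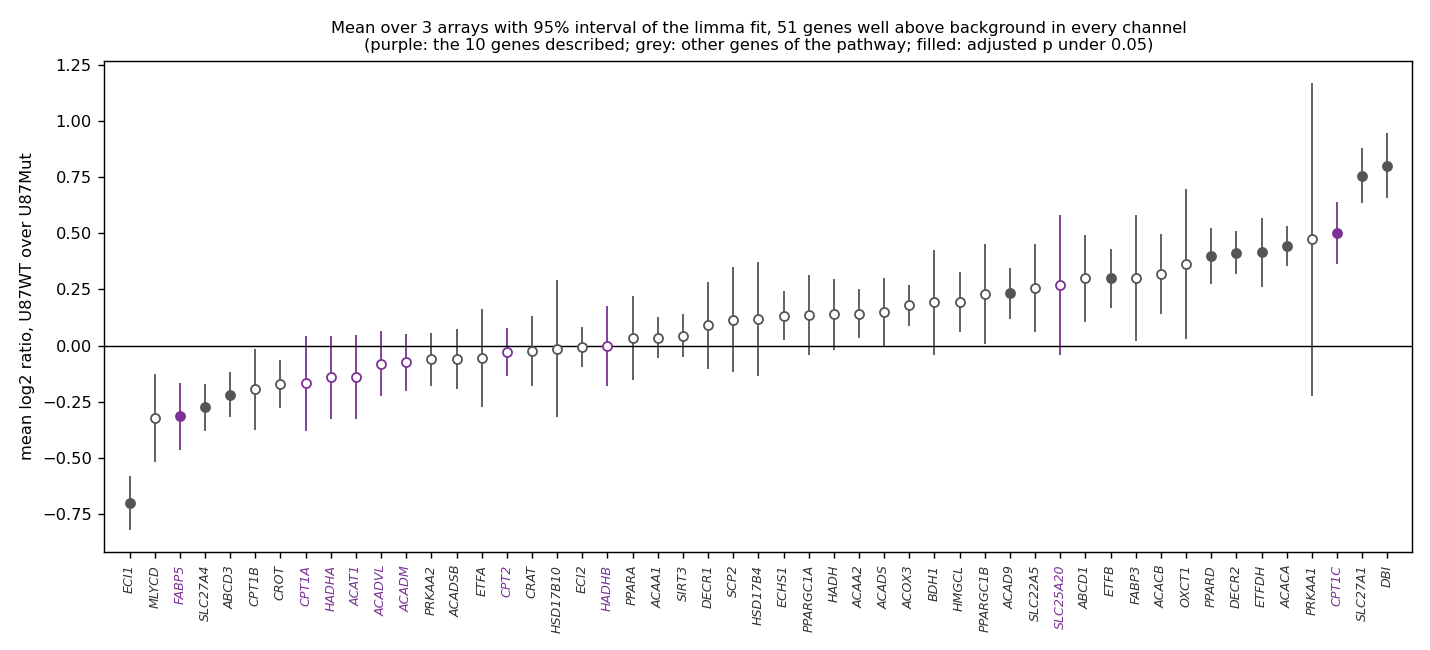
Mean log2 ratio of U87WT over U87Mut over the 3 arrays, with the 95% interval of the limma fit, for the 10 genes (purple) and 41 other genes of the pathway (grey) that were well above background in every channel, in rising order. Filled points have an adjusted p under 0.05, and they include CPT1C at 0.50 and FABP5 at -0.31, with ECI1 at -0.70 and DBI at 0.80 at the ends.

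The same spots were also processed in other ways. The serum-free and IGF1+OSI906 ratios of the 10 genes moved little except with a median in place of loess and, for ACAT1, with the mean of its probes, whereas on the IGF1 array several genes moved together when the background was fitted on all spots. Under that fit FABP5 and CPT1A lay at -0.55 and -0.67 on the IGF1 array. CPT1C kept its sign on every array under each of the 9 ways, and FABP5 did so under all but the median within arrays, where its ratio with IGF1 was 0.20.

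**Figure D5:**
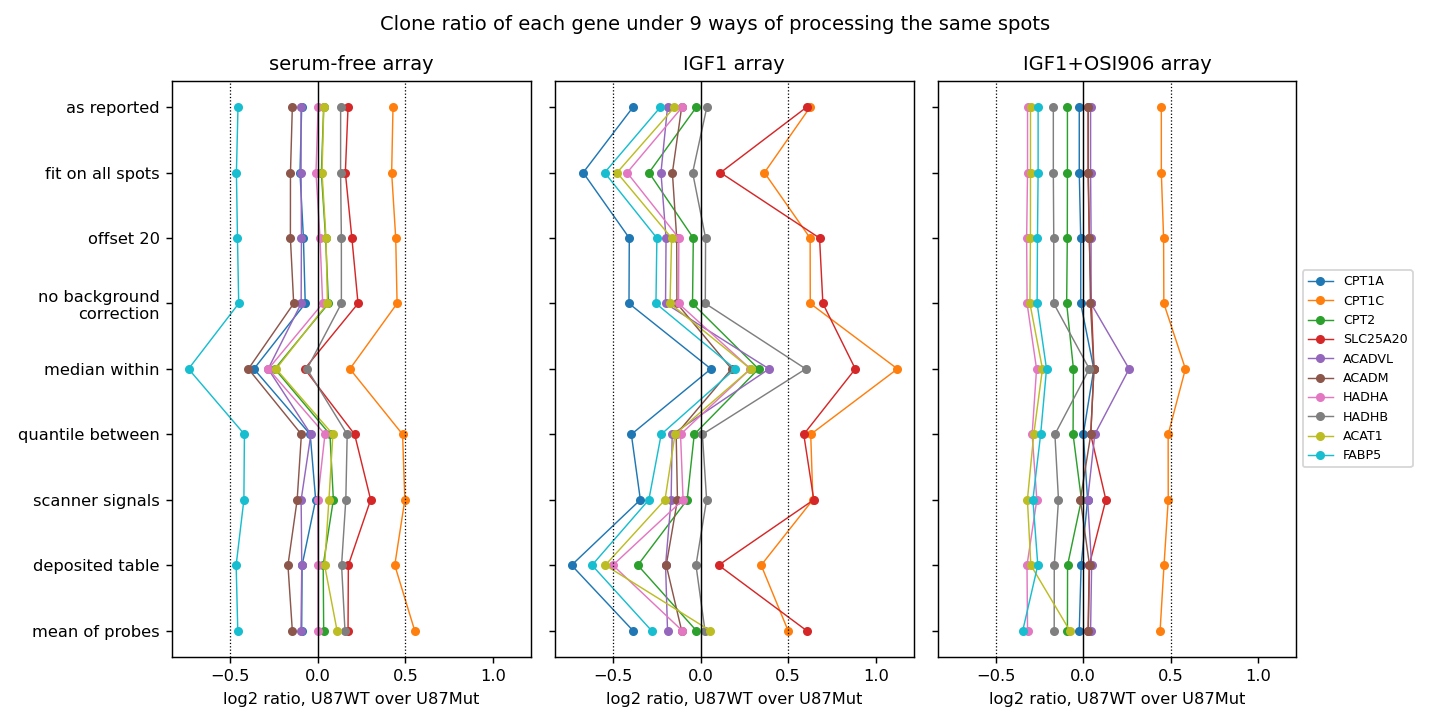
Log2 ratio of U87WT over U87Mut of each of the 10 genes (colored lines) on each array under 9 ways of processing, from the one reported (top) to the mean of a gene's probes (bottom), with dotted lines at 0.5 either way. The IGF1 array shows the widest shifts, where SLC25A20 goes from 0.61 to 0.11 with the background fitted on all spots.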

How the data were processed

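The 3 Agilent 2-color arrays, 1 per condition, carried RNA of both clones. Intensity values were deposited, per the file headers, as raw medians of the pixels of a spot and of the background around it. The software's processed intensities and its log10 ratio, per the file headers red over green, served for an alternative. The authors also deposited a table of log2 ratios, background-corrected and normalized with limma, used as another alternative.

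In R 4.3.3 with limma 3.58.1, normexp (offset 50) was used for background correction and fitted without the 384, 572 and 5 spots marked as not uniform on the serum-free, IGF1 and IGF1+OSI906 arrays. The 2075 control spots were then removed, outlier spots were given weight 0 and left out, and loess within and Aquantile between arrays were applied. Spots of a probe were averaged, and the brightest probe stood for a gene. A symbol was found by RefSeq transcript in the GRCh38.p14 table for 34892 of 36770 probes with such a transcript. An intercept-only limma model over the 3 arrays tested the clones, with Benjamini-Hochberg adjustment over 58201 probes and a threshold of 0.05. The SE and interval of a mean ratio are the moderated ones of this model. Ratios and differences of channel levels past 0.5 were counted without a test. Precision is limited by having 1 array for a condition.

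The members and lists were chosen with earlier results of these data known. Named were the 10 genes by every probe, IGF1R, and of the pathway list up to 6 called genes with the largest mean ratio and up to 4 with the largest difference after IGF1 in each clone. Any other gene was named after its values were seen, and 1 gene of the pathway list is not reported here. The test was checked on simulated data, but no outcome of that check is given here. Alternatives were a background fit on all spots, no background correction, an offset of 20, the median within arrays, quantile between arrays, the scanner software's signals, the deposited table, a limit of 1, the mean of a gene's probes, bright probes alone and leaving out each array.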

Additional observations from a re-analysis of the deposited data

Results flagged for a closer look

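By the brightest probe, the clones moved in opposite directions between the same arrays in 4 genes. The share of all probes that do so is not given, so the count of 4 is not read as a trait of these genes. With 1 array per condition these differences between the clones were not tested. Both channel levels are rebuilt from the mean level and the ratio of an array. An error in a ratio thus moves the clones in opposite directions. From serum-free medium to IGF1, CPT1A went -0.14 in U87WT and 0.16 in U87Mut, a difference of -0.29, CPT1C went 0.12 and -0.08, a difference of 0.20, and SLC25A20 went 0.09 and -0.34, a difference of 0.43. From IGF1 to IGF1+OSI906, CPT1A went 0.27 and -0.09, a difference of 0.36, SLC25A20 went -0.29 and 0.29, a difference of -0.58, and ACAT1 went -0.13 and 0.02, a difference of -0.15. The sets for CPT1A and SLC25A20 share the IGF1 array, so a deviation on it would enter both with opposite sign. The second CPT1C probe went -0.56 and -0.26 with IGF1, the same way in both clones, and the other ACAT1 probes were lower with OSI906 in both clones. With the background fitted on all spots, SLC25A20 went the same way in both clones, by -0.29 and -0.25 with IGF1 and by 0.12 and 0.20 with OSI906, while CPT1C with IGF1 (-0.02 and 0.04) and ACAT1 with OSI906 (0.03 and -0.14) changed sign in both. With a median in place of loess CPT1A with IGF1 went 0.22 and -0.20, and with OSI906 0.09 in both.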

How the results depend on the processing

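No paired analysis was possible because the labels number no replicates that could be matched across conditions, beyond the comparison of the clones within each array that the reported test makes. Of the count of 1 gene higher in U87WT, the median within arrays and the scanner signals left 0, and leaving out an array gave 0 to 1. Of the count of 1 lower, the fit on all spots, the deposited table, no background correction, the median and the scanner signals left 0, and leaving out an array gave 0 to 1. Leaving out the serum-free or the IGF1+OSI906 array ended both calls. Past 0.5 on the IGF1 array, where 2 genes were counted, the deposited table gave 4, the median 3, the mean of probes 1 and a limit of 1 gave 0. Where 0 were counted, the median gave 1 on each of the serum-free and IGF1+OSI906 arrays and the mean of probes 1 on the serum-free array. After IGF1, also at 0, the median gave 1 gene in U87WT and 2 in U87Mut. With OSI906, also at 0, U87WT had 1 by the mean of probes, the median, the offset of 20 and the scanner signals, and U87Mut had 1 by the fit on all spots, the median and the scanner signals. Against 8 pathway genes higher in U87WT, 3 were called by the fit on all spots, 1 by the deposited table and 0 by the median and the scanner signals, and 0 to 9 when an array was left out. Against 3 lower, 1 was called by the fit on all spots, the deposited table and without background correction, 0 by the median and the scanner signals, and 0 to 3 when an array was left out.

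Over all probes limma called 666 with the fit on all spots and 785 with the deposited table, against 4863 as reported. It called 1093 without the serum-free array, 6019 without the IGF1 array and 0 without the IGF1+OSI906 array (9277 at an unadjusted p under 0.05). The median within arrays also called 0 (5124 unadjusted) and moved the median ratio of bright probes to -0.13, 0.20 and 0.05 on the serum-free, IGF1 and IGF1+OSI906 arrays, and the scanner signals called 0 (10983 unadjusted). The SD of the fitted Cy5 background of the IGF1 array was 1.32 as reported and 701 on all spots. The mean ratios of CPT1C and FABP5 kept their signs under every alternative run. The cause of the lost calls was not tested.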

Other observations

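The remaining called genes of the pathway, named here after their values were seen, had smaller mean ratios. PPARD, a nuclear receptor for fatty acids, ETFB, a subunit of the electron transfer flavoprotein, and ACAD9 were higher in U87WT by 0.40, 0.30 and 0.23 on the log2 scale. SLC27A4, another fatty acid transport protein, and ABCD3, a peroxisomal transporter, had mean ratios of -0.27 and -0.22. These are the brightest probes, each called by limma over the 3 arrays. The second probes of PPARD, ACAD9 and ABCD3 had mean ratios of 0.25, 0.00 and -0.08 and were not called (adjusted p = 0.133, 0.962 and 0.352 by limma). PRKAA1 went the other way. Its brightest probe, with ratios of 1.18, -0.20 and 0.43, was not called (adjusted p = 0.416 by limma). Its second probe had ratios of 0.55, 0.53 and 0.55 and a mean of 0.54 (adjusted p = 0.0047 by limma).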
